A study of Homo sapiens with 2 samples.

Results

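Of 10 genes that p53 is known to activate, MDM2, GDF15, PHLDA3, TP53I3, TP53INP1, BTG2, FAS, ZMAT3, PLK3 and RRM2B, 3 were higher by at least 25%, with a counting interval that excluded no difference, in the ASO-1235 library of HCC1954 cells, and 0 were lower by at least 20%. The same rule called 11.0% of all genes higher and 10.1% lower. After removal of a trend with GC content and transcript length, 1 of the 10 genes was still called higher. Of all 14291 genes compared, 1046 were then called higher and 1045 lower. These 10 genes were taken by symbol from a table of 62699 genes, and CDKN1A was kept apart from them. No cutoff on their values was applied, but they were chosen with earlier results of these data known. The cells are an established human breast cancer line in which the gene of the HER2 receptor is amplified. By genotype label, 1 library came from ASO-1235 cells and 1 from ASO-NC cells, and the series asks what LINC01235, a long non-coding RNA, does to transcription in this line. The labels give no dose, time or sequence for ASO-1235 or ASO-NC. With 1 library per group there is no replicate to set a difference against, and no p-value is given. Every comparison below is between these libraries, not between the conditions.

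The transcription factor p53 binds response elements made of a pair of 10-base repeats and activates genes of cell cycle arrest, apoptosis, DNA repair and metabolism. One of these genes, MDM2, encodes the ubiquitin ligase that marks p53 for degradation, which closes a feedback loop. The target genes of p53 also have other inducers. The RNA counts measured here do not separate these inputs.

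The ASO-1235 library held 37916307 counts and the ASO-NC library 48092494. LINC01235 (ENSG00000270547, on chromosome 9) had 0 counts in the ASO-1235 library and 1337 in the ASO-NC library, at least 377-fold lower against a floor of 3 counts. Of the epithelial markers EPCAM, CDH1, ERBB2 and 4 keratins, 7 of 7 were at 1 CPM or more, where CPM is the count scaled to the size of the library. Of 5 immune markers 1 was at 1 CPM in at least 1 library (LYZ, 44 counts in ASO-1235 and 98 in ASO-NC). Of 6 fibroblast markers 1 was, COL1A1, with 1559 counts (39.7 CPM) in ASO-1235 and 2067 (44.5 CPM) in ASO-NC. Of 5 endothelial and adipocyte markers 2 were. VWF had 249 counts in ASO-1235 and 345 in ASO-NC, and PLIN1 had 132 in ASO-1235 and 235 in ASO-NC. Ratios are ASO-1235 over ASO-NC after TMM scaling. Their 95% intervals cover counting error only. They were computed from counts divided by 2, because most counts were even numbers, as when both mates of a pair are counted. Odd counts were halved without rounding, so the intervals are approximate. Among genes that reached 1 CPM in either library, a gene was called higher when its ratio was above 1 by at least 25%, and lower when it was below 1 by at least 20%, if its interval excluded 1.

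The response elements through which p53 is known to act were looked for in the promoter windows of RefSeq (GRCh38.p14), which run from 250 bases before to 50 bases after a gene's start. The windows of 7 of the 10 genes were scanned. The p53 consensus was allowed 3 mismatches over its 20 bases and a spacer of up to 13 bases, with the central C and G of both repeats intact. It reads the same on both strands. At least 1 match was present in 4 of the 7 genes, against 15.3% of all 27305 genes with a window. A gene with several starts has several windows and was counted if any matched, and 12.8% of all 35116 windows did. These shares were not matched to the 7 genes for number of windows or GC content. A match is a description of letters and not evidence of binding. The 4 matches are shown because they are the letters nearest to the p53 consensus around these starts, with the 10-base repeats in capitals and the flanks and the spacer in lower case, 5′ to 3′ on the strand of the gene.
MDM2 chr12:68808918-68808947: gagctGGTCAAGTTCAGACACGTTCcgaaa
GDF15 chr19:18386181-18386207: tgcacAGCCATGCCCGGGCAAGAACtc
FAS chr10:88991304-88991333: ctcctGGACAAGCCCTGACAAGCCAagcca
ZMAT3 chr3:179071865-179071894: ccGGGCCTGCTCcgccaaGCACATGCGCag

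The MDM2 match had 2 mismatches and no spacer. It lay from −94 to −75 relative to an internal start of the gene, within an intron in 7 of 34 annotated transcripts and in an exon of 0 (GENCODE 29). The FAS match also had 2 mismatches, lay from −122 to −103 relative to one of the RefSeq starts, and fell in an intron of 11 and an exon of 2 of 20 transcripts. The GDF15 match had 3 mismatches and lay at 28 to 47 after the start, in an exon of 3 of 5 transcripts. The ZMAT3 match had 3 mismatches and a spacer of 6 bases, in an exon of 2 of 3 transcripts. For BTG2, PLK3 and TP53I3 the windows held no match, which says only that these letters are not in these windows.

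All 10 genes reached 1 CPM in at least 1 library. The ratio was above 1 for 7 of them and below 1 for 3, where 47.5% of all 14291 genes at 1 CPM had a ratio above 1. Scaled by total count, or by TMM on genes at 1 CPM alone, the libraries gave 8 above and 2 below. The interval lay above 1 for 5, GDF15, RRM2B, ZMAT3, TP53INP1 and MDM2, and below 1 for 1, PHLDA3, against 21.3% and 25.1% of all genes. In RNA from whole cultures, a higher level in each cell and a larger share of cells that express a gene cannot be told apart. Called higher were 3, GDF15, RRM2B and ZMAT3, and 0 were called lower. Over all genes the same rule called 11.0% higher and 10.1% lower. At 1.5-fold 0 of the 10 were called, against 4.72% of all genes higher and 2.34% lower. The median log2 ratio of the 10 genes was 0.26, against −0.02 for all genes at 1 CPM. Their ratios ran from 0.829 for PHLDA3 to 1.46 for GDF15, and CDKN1A, the p53 target that encodes the cell cycle inhibitor p21, stood above all of them. It had 1527 counts in the ASO-1235 library and 1182 in the ASO-NC library, a ratio of 1.53 (1.37 to 1.70).

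**Figure D1:**
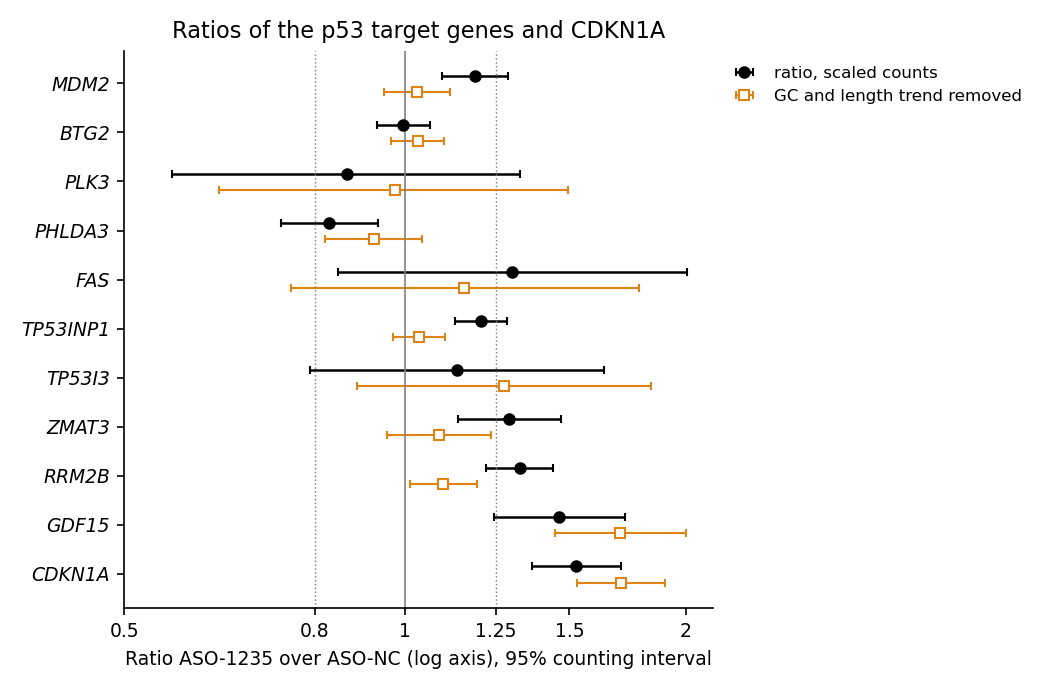
Ratio ASO-1235 over ASO-NC (log axis) of the 10 genes and CDKN1A; filled circles are scaled counts, open squares the same after removal of the trend with GC content and length, bars 95% counting intervals, dotted lines the sizes asked for. The filled circles of GDF15, RRM2B and ZMAT3 lie past the right dotted line with intervals clear of 1, and after removal of the trend only GDF15 of the 10 does so.

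The ratio moved with the GC content of transcripts across the whole table, and this touches most of the 10 genes. With genes split into 5 classes by GC content, the class of lowest GC content had a median log2 ratio of 0.18 and the class of highest −0.20 (2793 genes each). RRM2B, FAS, ZMAT3 and TP53INP1 were in the lowest class, with GC contents of 36.4% to 39.6%, and MDM2 was in the next one at 41.9%. GDF15, PLK3, PHLDA3 and TP53I3 were in the highest class, at 58.4% to 62.9%, and BTG2 lay between at 50.3%. After removal of the trend with GC content and transcript length the median log2 ratio of the 10 genes was 0.08, against −0.04 for all genes. Of the 10 genes 1, GDF15, was called higher, where 1046 of all 14291 genes were called higher and 1045 lower. The origin of the trend was not tested.

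**Figure D2:**
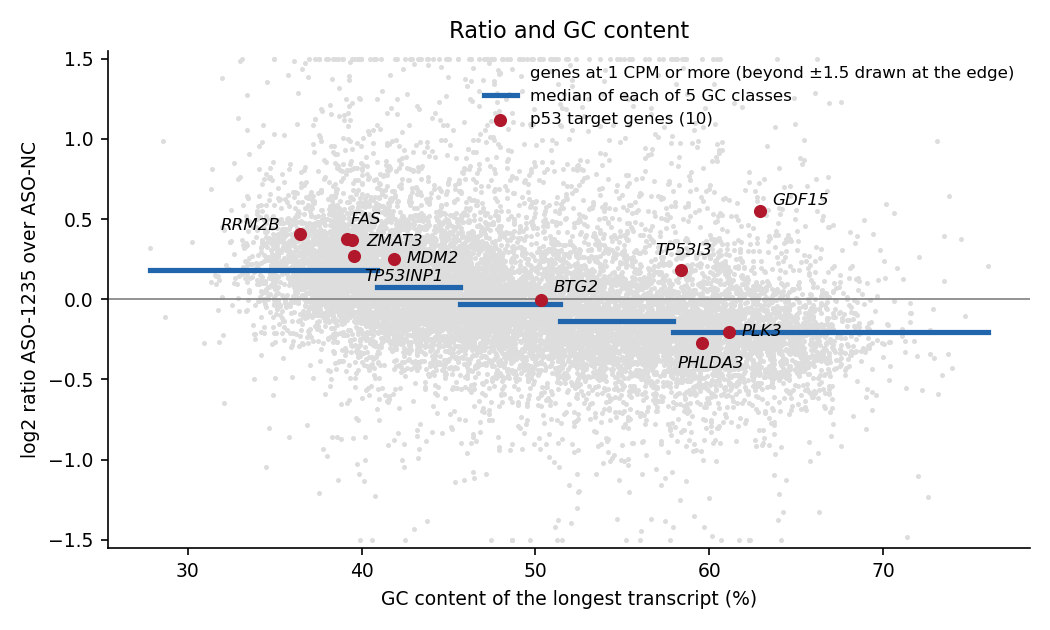
log2 ratio ASO-1235 over ASO-NC against the GC content of the longest transcript for all genes at 1 CPM or more (grey), with the median of each of 5 classes of genes by GC content (blue lines) and the 10 p53 target genes (red). RRM2B, FAS, ZMAT3, TP53INP1 and MDM2 lie at the GC-poor end, where the medians are 0.18 and 0.08, while GDF15 lies at 62.9% GC, where the median is −0.20.

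GDF15, a secreted stress cytokine of the TGF-beta superfamily, had the highest ratio of the 10. The gene (ENSG00000130513) spans chromosome 19, 18374731 to 18389176, plus strand, in GENCODE 29 on GRCh38, which also gives the positions of the other genes. It had 690 counts (17.6 CPM) in the ASO-1235 library and 557 counts (12.0 CPM) in the ASO-NC library, a ratio of 1.46 (1.246 to 1.72). Among the 2793 genes of its GC class, 96.4% had a ratio at or below this, and 93.4% of all genes at 1 CPM did. After removal of the trend the ratio was 1.70 (1.45 to 1.999), close to that of CDKN1A at 1.70, a gene of the same GC class. The neighbours PGPEP1, SSBP4 and ISYNA1, all within 50 kb, had ratios of 1.06 (0.804 to 1.39), 0.703 (0.614 to 0.803) and 0.794 (0.672 to 0.937). The receptor of GDF15, GFRAL, had 0 counts in both libraries, below 0.0764 CPM in ASO-1235 and 0.0646 CPM in ASO-NC at a floor of 3 counts.

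GDF15 is also a known target of the stress factors ATF4, CHOP and ATF3 and of EGR1. Transcripts of these 4 factors were higher in the ASO-1235 library. DDIT3, which encodes CHOP, had 903 counts in ASO-1235 and 715 in ASO-NC, a ratio of 1.49 (1.30 to 1.72). ATF3 had 848 counts in ASO-1235 and 434 in ASO-NC, and EGR1 had 2403 in ASO-1235 and 1194 in ASO-NC. ATF4, which is regulated largely at translation, was at 1.08 (1.05 to 1.11). The part of these factors in the level of GDF15 was not tested.

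RRM2B, which encodes the p53-inducible small subunit of ribonucleotide reductase, was next. The gene (ENSG00000048392) spans chromosome 8, 102204502 to 102239118, minus strand. It had 2436 counts (62.0 CPM) in the ASO-1235 library and 2169 counts (46.7 CPM) in the ASO-NC library, a ratio of 1.33 (1.22 to 1.44). Its partner and its relative went the other way. RRM1, the large subunit that both small subunits pair with, was at 0.879 (0.818 to 0.945), and RRM2, the small subunit of S phase, had 5055 counts in ASO-1235 and 7226 in ASO-NC, a ratio of 0.826 (0.785 to 0.870). Per length, RRM2B stood at 11.2 and RRM2 at 24.2 CPM per kb of exon in the ASO-1235 library, against 8.42 and 29.2 CPM per kb in the ASO-NC library. With the trend removed RRM2B was at 1.10 (1.01 to 1.19), no longer past the size asked for, and RRM2 at 0.794.

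ZMAT3, a zinc finger protein that binds RNA and acts in splicing and mRNA stability, was the third gene called. It had 1014 counts (25.8 CPM) in the ASO-1235 library and 926 counts (19.95 CPM) in the ASO-NC library, a ratio of 1.29 (1.14 to 1.47). The gene (ENSG00000172667) spans chromosome 3, 179017223 to 179072279, minus strand. With the trend removed its ratio was 1.09 (0.956 to 1.24), an interval that includes 1. ZMAT1 and ZMAT2, relatives with a zinc finger of the same type, were at 1.08 (0.940 to 1.23) and 0.892 (0.829 to 0.959).

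MDM2, the feedback ligase, was higher by less than the size asked for. It had 2367 counts (60.2 CPM) in the ASO-1235 library and 2351 counts (50.7 CPM) in the ASO-NC library, a ratio of 1.19 (1.10 to 1.29). The deposited counts were nearly equal, in libraries of different depth. With the trend removed the ratio was 1.03 (0.948 to 1.12). MDM4, the relative that binds p53 and restrains its activity, was at 1.003 (0.893 to 1.13). MDM2 (ENSG00000135679) spans chromosome 12, 68808176 to 68850686, plus strand. Its exons share 785 bases with an antisense gene, which had 0 counts in both libraries. They share 133 bases with the neighbouring carboxypeptidase gene on the opposite strand, which had 22 counts in ASO-1235 and 33 in ASO-NC.

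TP53INP1, which encodes a nuclear protein of stress response and autophagy, had the highest CPM of the 10 in the ASO-1235 library. It had 3836 counts (97.6 CPM) there and 3757 counts (80.9 CPM) in the ASO-NC library, a ratio of 1.21 (1.13 to 1.29). Removal of the trend brought it to 1.04 (0.971 to 1.10). The relative TP53INP2 was at 0.992 (0.936 to 1.05). E2F1, a known activator of TP53INP1, was lower in the ASO-1235 library, at 0.706 (0.622 to 0.80). TP53INP1 (ENSG00000164938) spans chromosome 8, 94925972 to 94949411, minus strand, inside the span of NDUFAF6 on the opposite strand. NDUFAF6 shares no exon base with it and was at 1.05 (0.978 to 1.13).

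**Figure D3:**
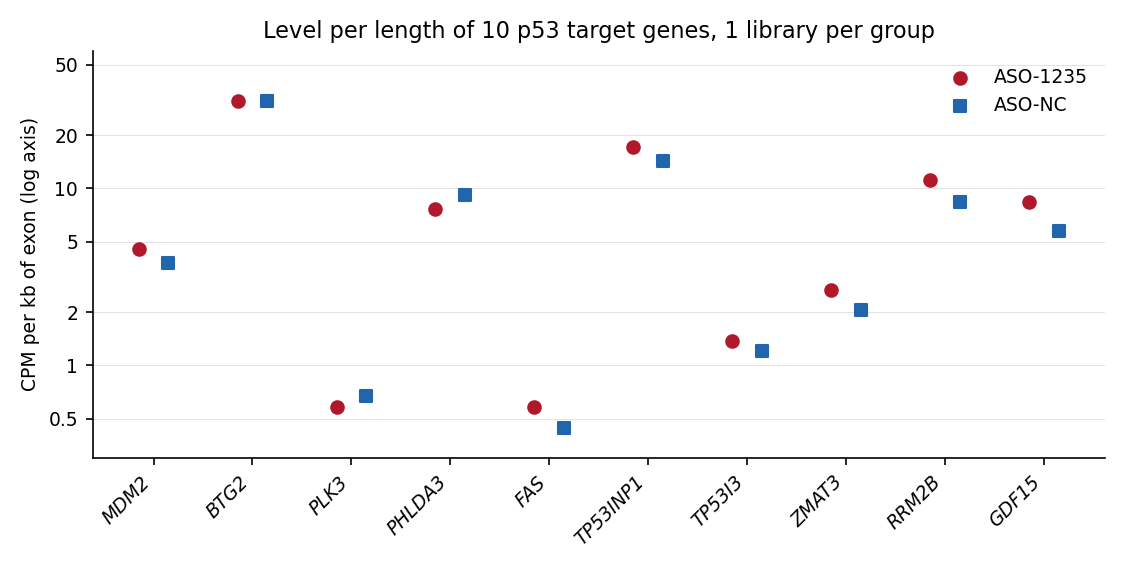
Level per length of the 10 genes in CPM per kb of exon (log axis), with 1 library per group, ASO-1235 as red circles and ASO-NC as blue squares. BTG2 stands highest, with 31.1 in ASO-1235 and 31.2 in ASO-NC, and PLK3 and FAS lowest, all below 0.7.

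BTG2, an antiproliferative protein that recruits the deadenylation machinery to mRNA, was level between the libraries with TMM scaling. It had 3369 counts (85.7 CPM) in the ASO-1235 library and 3997 counts (86.1 CPM) in the ASO-NC library, a ratio of 0.996 (0.933 to 1.06). With scaling by total count its ratio was 1.07 (1.001 to 1.14), an interval that excluded 1. The ratio lay above 1 in 2 of the 6 scalings tried. Per length it was the most abundant of the 10, at 31.1 CPM per kb in ASO-1235 and 31.2 in ASO-NC, ahead of TP53INP1 at 17.2 in ASO-1235 and 14.3 in ASO-NC. The gene (ENSG00000159388) spans chromosome 1, 203305491 to 203309602, plus strand. Its divergent non-coding neighbour BTG2-DT, 182 bases away, had 789 counts in ASO-1235 and 1078 in ASO-NC, a ratio of 0.865 (0.757 to 0.986). The relatives BTG1 and BTG3 were higher, at 1.21 (1.10 to 1.34) and 1.26 (1.06 to 1.49), and TOB1 was lower at 0.899 (0.868 to 0.931).

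PHLDA3, a pleckstrin homology domain protein that competes with AKT for membrane lipids, was the only one of the 10 whose interval lay below 1. It had 945 counts (24.1 CPM) in the ASO-1235 library and 1346 counts (29.0 CPM) in the ASO-NC library, a ratio of 0.829 (0.736 to 0.934), short of the size asked for. With scaling by total count its ratio was 0.891 (0.790 to 1.003), an interval that included 1. Genes of its GC class were lower as a whole, and 37.4% of them had a ratio at or below that of PHLDA3. With the trend removed it was at 0.925 (0.821 to 1.04). PHLDA3 (ENSG00000174307) spans chromosome 1, 201464383 to 201469237, minus strand, and the neighbour CSRP1, 14.3 kb away, was at 0.861 (0.808 to 0.917). Its relative PHLDA1 had 101 counts in ASO-1235 and 125 in ASO-NC, a ratio of 0.955 (0.645 to 1.41).

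The other 3 genes were too weakly expressed for their direction to be resolved at this depth. FAS, the death receptor that recruits FADD and caspase 8, had 97 counts (2.47 CPM) in the ASO-1235 library and 88 counts (1.90 CPM) in the ASO-NC library, a ratio of 1.30 (0.848 to 2.0). TP53I3, a quinone oxidoreductase linked to oxidative stress, had 125 counts (3.18 CPM) in ASO-1235 and 130 counts (2.80 CPM) in ASO-NC, a ratio of 1.14 (0.790 to 1.63). PLK3, a polo-like kinase of the stress response, had 80 counts (2.04 CPM) in ASO-1235 and 109 counts (2.35 CPM) in ASO-NC, a ratio of 0.867 (0.562 to 1.33). All 3 intervals included 1, and differences of the size seen for GDF15 lie inside those of FAS and TP53I3.

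Of the genes around FAS, its ligand FASLG had 0 counts in both libraries. The adaptor FADD was at 0.965 (0.809 to 1.15), the initiator caspase gene CASP8 at 0.985 (0.880 to 1.10) and its inhibitor CFLAR at 1.05 (0.976 to 1.12). ACTA2, which encodes smooth muscle actin, lies on the opposite strand and shares 380 exon bases with FAS, and it had 38 counts in the ASO-1235 library and 0 in the ASO-NC library. FAS (ENSG00000026103) spans chromosome 10, 88990582 to 89015785, plus strand. TP53I3 (ENSG00000115129; chromosome 2, 24077433 to 24085861, minus strand) shares 80 exon bases with FAM228B on the opposite strand. FAM228B had 140 counts in ASO-1235 and 77 in ASO-NC, a ratio of 2.15 (1.43 to 3.27). Whether the counting used strand is not given, so reads from the shared bases cannot be assigned to 1 gene of a pair. PLK3 (ENSG00000173846; chromosome 1, 44800225 to 44805990, plus strand) shares 78 exon bases with DYNLT4, which had 10 counts in ASO-1235 and 2 in ASO-NC. Of its relatives, PLK1 was at 0.809 (0.749 to 0.873), PLK4 at 0.834 (0.745 to 0.932) and the p53 target PLK2 at 1.01 (0.951 to 1.07).

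**Figure D4:**
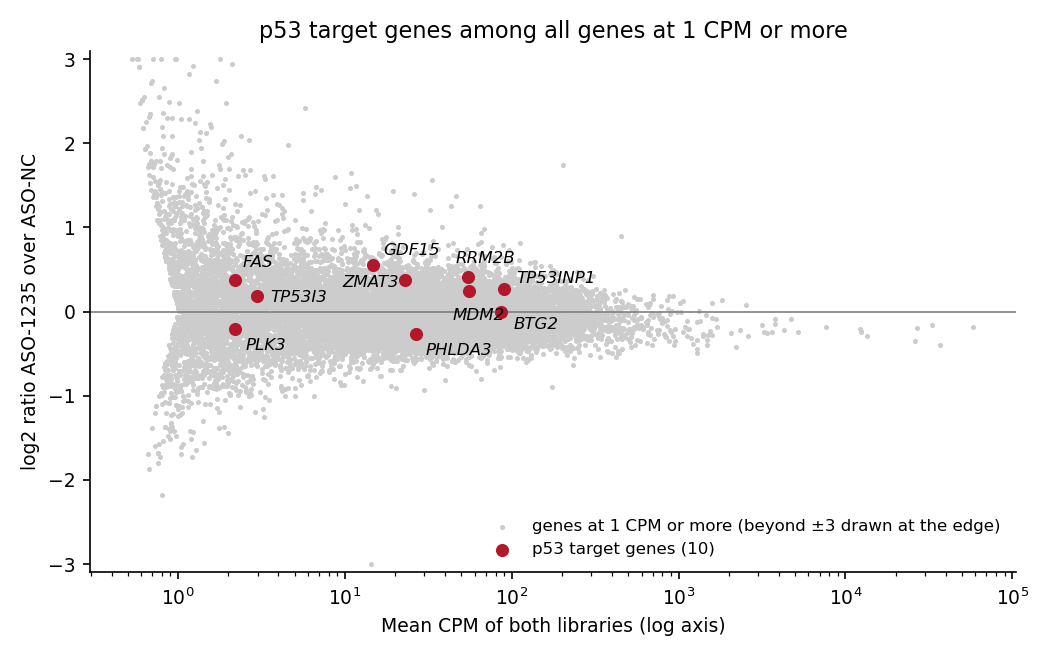
log2 ratio ASO-1235 over ASO-NC against the mean CPM of both libraries (log axis) for the 14291 genes at 1 CPM or more (grey) and the 10 p53 target genes (red). All 10 lie between −0.27 and 0.55, inside the cloud of other genes at their level, and PLK3, FAS and TP53I3 lie at its weakly expressed end.

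A wider list held 56 other p53 targets, of which 51 were at 1 CPM. Of these, 24 had a ratio above 1 and 27 below, and over the 6 scalings tried the number above 1 ran between 22 and 33, the highest being by total count. The median log2 ratio was −0.01 against 0.26 in the 10 genes and −0.02 in all genes. Called higher were 3, PPM1D, DRAM1 and TIGAR, and called lower were 2, SFN and PML, where 11.0% of all genes were called higher and 10.1% lower. By role, the 12 apoptosis genes had a median of 0.10, the 4 DNA repair genes 0.05, the 10 cell cycle and feedback genes −0.07, the 12 genes of metabolism and autophagy −0.08 and the 13 of signalling and surface −0.09. The difference between the lists was not tested, and both were chosen with results of these libraries known.

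PPM1D, a phosphatase that reverses p53 activation, had 3875 counts in the ASO-1235 library and 3605 in the ASO-NC library, a ratio of 1.27 (1.19 to 1.35). DRAM1, a lysosomal protein of autophagy, was at 1.36 (1.18 to 1.57), and TIGAR, a phosphatase that lowers glycolysis, at 1.37 (1.15 to 1.64). Removal of the trend left DRAM1 and TIGAR at 1.33 and 1.29 and PPM1D at 1.19. LIF, a cytokine, had 42 counts in ASO-1235 and 24 in ASO-NC, a ratio of 2.07 (0.971 to 4.61) that was not called, and with the trend removed it was called at 2.23 (1.05 to 4.96). PERP, a membrane protein of apoptosis and cell junctions, was higher at 1.22 (1.16 to 1.28). SFN, the 14-3-3 sigma protein of G2 arrest, had 632 counts in ASO-1235 and 1088 in ASO-NC, a ratio of 0.686 (0.595 to 0.790), the lowest of the 51 genes at 1 CPM. PML, which organises nuclear bodies and is also induced by interferon, was at 0.797 (0.702 to 0.905). NINJ1, which ruptures the membrane of dying cells, and EPS8L2, an actin regulator, were at 0.802 (0.757 to 0.850) and 0.821 (0.763 to 0.884). The apoptosis genes BAX, BBC3 and PMAIP1 were at 0.991 (0.890 to 1.10), 1.09 (0.937 to 1.27) and 1.05 (0.935 to 1.18).

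**Figure D5:**
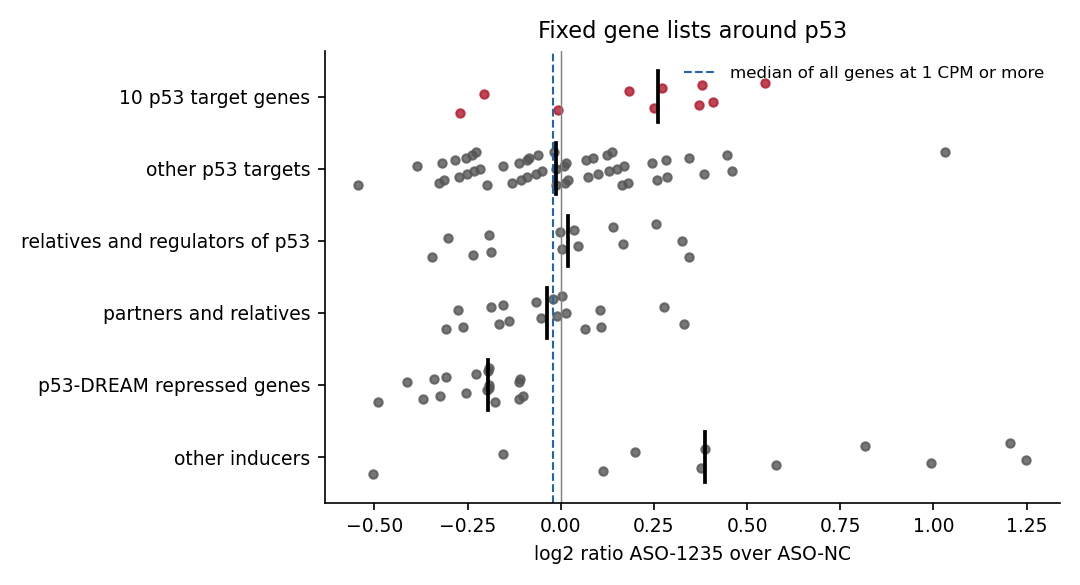
log2 ratio ASO-1235 over ASO-NC of each gene at 1 CPM or more in 6 gene lists, with the median of each list (black line) and of all genes (dashed line, −0.02). The 10 p53 target genes have a median of 0.26, the other p53 targets −0.01, and all 18 p53-DREAM repressed genes lie below 0, or 17 of them if total counts set the scale.

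Relatives and regulators of p53 went both ways. Of 14 such genes, 8 had ratios above 1 and 6 below, with between 7 and 9 above 1 over the 6 scalings. Their median log2 ratio was 0.02, and 2 were called higher, PPM1D and ATM, with 0 called lower, against 11.0% and 10.1% of all genes. After removal of the trend 0 were called higher and 2 lower, CHEK1 and RPL5, against 1046 and 1045 of all 14291 genes. ATM, the kinase that signals DNA breaks to p53, had a ratio of 1.254 (1.15 to 1.37), which was 1.04 after removal of the trend. ATR was at 1.10 (1.02 to 1.19), and the checkpoint kinase genes CHEK1 and CHEK2 were at 0.874 (0.784 to 0.974) and 0.810 (0.684 to 0.957). The ribosomal protein genes RPL5 and RPL11, whose products restrain MDM2, were at 0.879 (0.850 to 0.908) and 0.849 (0.814 to 0.885). TP63 had 81 counts in ASO-1235 and 80 in ASO-NC, and TP73 had 40 in ASO-1235 and 42 in ASO-NC, both with intervals that included 1.

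Active p53 represses cell cycle genes indirectly, through p21 and the DREAM complex. All 18 genes listed as such had ratios below 1, except that 1 of them passed 1 when total counts set the scale. With TMM scaling 52.5% of all genes had a ratio below 1. Their median log2 ratio was −0.20, and 5 were called lower: MYBL2 at 0.712 (0.662 to 0.765), BIRC5 at 0.752 (0.683 to 0.827), CDCA8, LMNB1 and CCNB2. Over all genes 10.1% were called lower. With the trend removed 8 of the 18 were called lower, among them MYBL2, BIRC5 and CCNB2 but not CDCA8 or LMNB1. Of all 14291 genes, 1045 were called lower with the trend removed. The part of p53, p21 or the DREAM complex in these ratios was not tested. Of 12 other inducers known for the 10 genes 11 were at 1 CPM, of which 7 were called higher and 1, E2F1, lower, against 11.0% and 10.1% of all genes. Of the NF-kB genes, which are known inducers of FAS and BTG2, RELB had 732 counts in ASO-1235 and 434 in ASO-NC, and RELA was at 0.898 (0.857 to 0.940). FOS and JUN, of the AP-1 factor that acts on MDM2, were at 1.76 (1.27 to 2.47) and 1.30 (1.22 to 1.39). Their part in the levels of the 10 genes was not tested.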

How the data were processed

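The deposited file holds raw counts per gene of 2 libraries; that the authors did not normalize them follows from the values. The submitters' processing notes name STAR 2.7.11a, featureCounts 2.0.6 and hg38. For the annotation release, the strand setting and any filter: not given in the sources used here. Polyadenylated RNA was captured and random primed, per the labels' protocols. Of counts from 1 to 1000, 64.0% in ASO-1235 and 67.5% in ASO-NC were even.

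Libraries were scaled with TMM over all genes (edgeR 4.0.16, R 4.3.3, factors 1.04 for ASO-1235 and 0.965 for ASO-NC), without a test. Intervals are Clopper-Pearson, given the sum of both counts. They were tried on simulated data in which every count was even. These libraries also hold odd counts, so that trial cannot show how well the intervals hold here. The intervals cover counting error only: without molecular identifiers, PCR copies are counted as separate molecules. log2 ratios for medians used a prior count of 0.5. Coordinates, exon lengths and GC content came from GENCODE 29 (GRCh38), in which 58206 IDs were found. The trend on GC content and log2 length of the longest transcript was fitted with splines of 5 degrees of freedom per property in a robust linear model (statsmodels 0.14.6), over the 97.7% of genes at 1 CPM with a value. The 10 genes, the lists and the alternatives were chosen with earlier results of these data known. Genes named are the 10, CDKN1A, LINC01235, up to 3 each way per list by the interval bound nearest to 1, and listed relatives and inducers. The other called list members, neighbours and a few further list members were named after their values were seen. A few genes that this rule or the neighbours would name are not reported here, and 1 of them was left out of its list. With 2 libraries no likeness of pattern between genes could be computed. The alternatives were DESeq2 1.42.0 size factors and other scalings, intervals, minimums, sizes and prior counts.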

Additional observations from a re-analysis of the deposited data

How the results depend on the processing

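With scaling by total count the median log2 ratio of all genes was 0.08 against −0.02, and 5 of the 10 genes (MDM2 and TP53INP1 too) were called higher. Among the other p53 targets that scaling gave 8 higher and 1 lower and a median log2 ratio of 0.0899, against 3 higher, 2 lower and −0.01. DESeq2 size factors gave 3 higher and 4 lower there. TMM on genes at 1 CPM, added after the data were seen, gave 3 higher and 1 lower. The shares of all genes called under these other scalings are not given. The counts of calls under them therefore cannot be set against such a share. With the GC and length trend removed, 1 of the 10 genes was called higher. Of the other targets 3 were called higher (DRAM1, TIGAR and LIF, without PPM1D) and 1 lower. Over all 14291 genes that alternative called 1046 higher and 1045 lower. It subtracts the trend shown for GC content. At 1.5-fold and at 2-fold, 0 genes of either list were called in either direction, since a larger size was asked for. The counts of the 10 genes called were 3 higher and 0 lower under upper quartile scaling, without mitochondrially encoded genes in the totals, with intervals at 99% or on deposited counts, and with no minimum or a minimum of 5 CPM. No paired analysis was possible because each group has 1 library. Depth limits FAS, TP53I3 and PLK3, at 80 to 130 counts per library.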
